A study of Homo sapiens with 6 samples.

Results

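The 4 human HOX gene clusters were examined in Hi-C data from DKO1 and HCT116 cells. Hi-C joins and sequences DNA ends that lie close together in the nucleus. HCT116, labelled as wild type, is an established colorectal cancer cell line. DKO1 is a clonal derivative of HCT116 in which DNMT1, the maintenance DNA methyltransferase, and DNMT3B, a de novo methyltransferase, were knocked out, so differences between the lines also hold whatever else sets this clone apart. Both lines were grown in the same medium, and for each of them 1 compartment track and 1 domain list stood for 3 libraries. The clusters were chosen by position on the hg19 build and not by their values. HOXA lay on chromosome 7 from 27120001 to 27260000, HOXB on chromosome 17 from 46600001 to 46820000, HOXC on chromosome 12 from 54320001 to 54460000 and HOXD on chromosome 2 from 176940001 to 177060000. These windows held 31 bins of 20 kb, out of 140474 bins present in both tracks, and the 1 Mb on each side of each window added 400 bins. They cover the 39 HOX genes, of which 11 are in HOXA, 10 in HOXB, 9 in HOXC and 9 in HOXD. Below, the name of a cluster stands for its window. The genes were not placed on hg19, so an end of a window need not be the end of the genes.

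HOX genes encode homeodomain transcription factors that give cells their position along the body axis. Within a cluster their order on the chromosome follows the order in which they act along that axis, from anterior members to the posterior paralogue group 13. Where they are silent they are known as large targets of Polycomb repression, and in embryos the HOXA and HOXD clusters are known to lie at borders between domains that hold their enhancers. HOXB13 is known as a factor of the distal colon and prostate. The data give chromatin contacts only, and neither expression nor methylation of these genes was measured in the files used here.

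The clusters arose by duplication, and the sequences they share are shown here to place their members. In the order of the RefSeq gene table, HOXA ends with HOXA13, followed by the long noncoding RNA HOTTIP and the homeobox gene EVX1. HOXB runs from HOXB1 to HOXB9, and HOXB13 follows after a stretch with other genes. HOXC runs the other way, from HOXC13 past the long noncoding RNA HOTAIR to HOXC4, and HOXD runs from HOXD13, next to EVX2, to HOXD1. The microRNA genes MIR196B in HOXA, MIR196A1 in HOXB and MIR196A2 in HOXC lie next to or near paralogue group 9. MIR10A lies in HOXB and MIR10B in HOXD, both near paralogue group 4. The mature sequences below, from RefSeq on GRCh38.p14, have the seed (bases 2 to 8) in capitals. The products of MIR196A1 and MIR196A2 are identical, and that of MIR196B shares their seed and differs at A12C, with positions counted from the 5′ end and the base of miR-196a-5p given before the position.
miR-196a-5p: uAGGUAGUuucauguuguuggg
miR-196b-5p: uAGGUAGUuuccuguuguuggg
miR-10a-5p: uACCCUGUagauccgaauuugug

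The study concerns DNA methylation, which in mammals falls mainly on cytosines followed by guanine, so the promoters at the posterior ends of the clusters with the highest and the lowest PC1 are shown with each such CpG in capitals. They are RefSeq promoters on GRCh38.p14, from 250 bases before to 50 after the start of the gene. That of HOXA13 is at chr7:27200042-27200341 on the minus strand and that of HOXD13 at chr2:176092471-176092770 on the plus strand of GRCh38.p14. These positions are on another build than the Hi-C coordinates and were not placed in bins.
HOXA13: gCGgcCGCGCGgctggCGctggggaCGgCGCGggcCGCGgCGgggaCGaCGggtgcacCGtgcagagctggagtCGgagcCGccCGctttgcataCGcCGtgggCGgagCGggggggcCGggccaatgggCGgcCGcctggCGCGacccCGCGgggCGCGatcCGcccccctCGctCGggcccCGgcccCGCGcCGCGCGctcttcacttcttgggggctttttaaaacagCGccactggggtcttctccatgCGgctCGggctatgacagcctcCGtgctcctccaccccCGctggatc
HOXD13: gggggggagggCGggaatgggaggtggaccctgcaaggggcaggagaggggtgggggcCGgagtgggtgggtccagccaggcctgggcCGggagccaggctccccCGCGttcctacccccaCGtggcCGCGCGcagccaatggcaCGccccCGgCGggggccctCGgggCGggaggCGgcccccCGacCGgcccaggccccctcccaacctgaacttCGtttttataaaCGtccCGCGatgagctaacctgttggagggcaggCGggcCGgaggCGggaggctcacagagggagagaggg
The HOXA13 promoter holds 44 CpGs in 300 bases, a number that 3.42% of 27305 genes with a promoter in the table reach, and the HOXD13 promoter holds 24, which 32.5% reach. Over the 9 of 11 HOXA genes with a promoter in the table the median was 23 CpGs, with a range from 11 to 44. Over 8 of 9 HOXD genes it was 24.5, with a range from 4 to 36, against a median of 14 over all genes. The promoters of HOXA and HOXD thus had similar medians and overlapping ranges. A relation of CpG number to PC1 was not tested. A count for HOXB and HOXC is void, because only 1 of 10 and 2 of 9 genes were matched.

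The compartment of nearly every bin of the 4 clusters was the same in both lines, with HOXA, HOXB and HOXC well inside compartment A and HOXD close to its border. PC1 is the score that separates the open, gene-rich compartment A (positive) from the closed compartment B (negative). In both tracks it has a mean of 0 and an SD of 1 within each chromosome. Of the 31 bins, 30 were positive in DKO1 and 31 in HCT116. The 1 bin that went from A to B was the HOXD13 end of HOXD, with -0.07 in DKO1 and 0.01 in HCT116, next to 0 in both. Over the autosomes, 16.6% of the bins positive in HCT116 were negative in DKO1. That share covers positive bins at every level and was not matched to the clusters. The 25 bins of HOXA, HOXB and HOXC were far from 0 in HCT116, the lowest at 0.60. Of the 6 HOXD bins, which lay near 0, 1 switched. Each line has 1 value per bin, so there was no test between the lines. The SDs given with means are over the bins of a window, which are neighbours and not replicates. The depth of the maps is unknown.

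HOXA had the highest mean PC1 in both lines, with 1.35 ± 0.23 in DKO1 and 1.24 ± 0.16 in HCT116 (SD over 7 bins). HOXB had 1.13 ± 0.06 in DKO1 and 0.87 ± 0.12 in HCT116 (SD over 11 bins). HOXC had 1.08 ± 0.07 in DKO1 and 0.81 ± 0.16 in HCT116 (SD over 7 bins). HOXD came last, with 0.11 ± 0.11 in DKO1 and 0.19 ± 0.09 in HCT116 (SD over 6 bins). The order HOXA, HOXB, HOXC, HOXD in mean PC1 was the same in both lines. In each line the bin ranges of neighbours in this order overlapped, apart from HOXD, whose highest bin, 0.25 in DKO1 and 0.27 in HCT116, lay below every bin of the other clusters. Levels on different chromosomes are each relative to their own chromosome. As a mean percentile within the chromosome, HOXA stood at 86.6 in DKO1 and 93.5 in HCT116, HOXB at 86.6 and 73.7, HOXC at 81.6 and 73.8 and HOXD at 54.6 and 52.7, each with DKO1 before HCT116. On this scale HOXA was lower in DKO1 and HOXD higher, the opposite of their differences in PC1. The order by mean PC1 was not kept on it either. HOXB, at 86.63, was level with HOXA, at 86.61, in DKO1, and HOXC, at 73.81, with HOXB, at 73.69, in HCT116. HOXD was last on both scales.

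**Figure D1:**
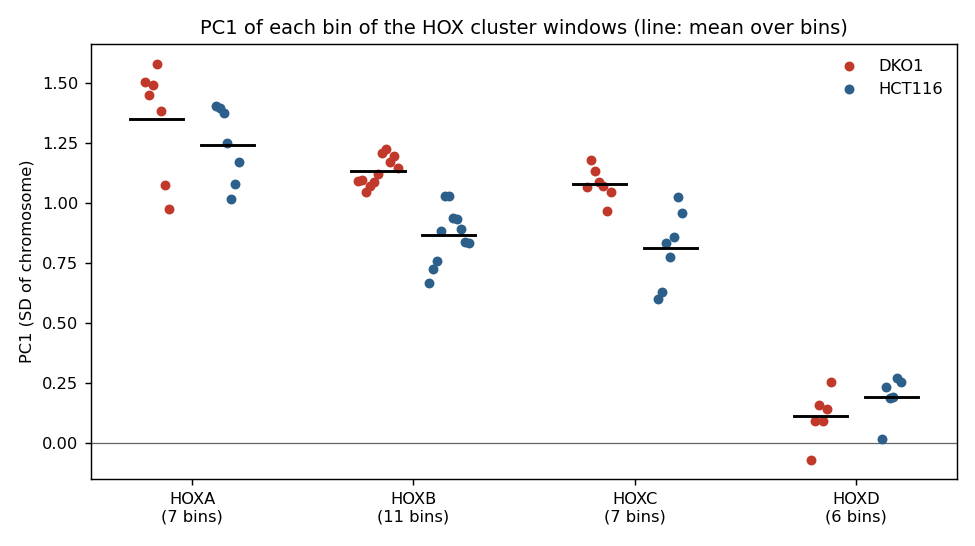
PC1 of every 20 kb bin in the 4 HOX cluster windows, in SD of the chromosome, with DKO1 on the left and HCT116 on the right of each cluster. Points are bins in chromosome order from left to right and lines are means over bins. HOXD stands near 0 in both lines, with no bin above 0.27, while the lowest bin of the other clusters is at 0.60.

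HOXB and HOXC were higher in DKO1 over nearly their whole length, whereas HOXD was slightly lower throughout and HOXA was mixed. The mean difference, DKO1 minus HCT116, was 0.27 in HOXB, 0.27 in HOXC, 0.11 in HOXA and -0.08 in HOXD. PC1 was higher in DKO1 in 11 of 11 HOXB bins, 6 of 7 HOXC bins, 5 of 7 HOXA bins and 0 of 6 HOXD bins. Over all autosomal bins 50.6% were higher in DKO1. The zero point of the scale matters for HOXA and HOXD, and the sign for HOXA also depends on the limits of the window, since widening it by 2 bins on each side gave -0.02. The median PC1 of chromosome 7 was -0.18 in DKO1 and 0.26 in HCT116, and that of chromosome 2 was -0.02 in DKO1 and 0.11 in HCT116. With each chromosome's median subtracted, the difference of HOXA became 0.55 and that of HOXD turned to 0.05, while those of HOXB and HOXC were 0.34 and 0.28.

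Set against autosomal windows with the same number of bins and a mean HCT116 PC1 within 0.25, all 4 differences lay between the 5th and the 95th percentile. The HOXB difference was above that of 83.5% of 27422 matched windows. HOXC stood above 82.5% of 26746, HOXD above 60.5% of 19955 and HOXA above 60.0% of 21986. The medians of the matched windows were 0.04 for HOXA, -0.03 for HOXB, -0.04 for HOXC and -0.20 for HOXD, and 32.7% of the windows matched to HOXD were higher in DKO1, so the fall in HOXD was smaller than that of the typical window at its level. In absolute size, 12.8% of the windows matched to HOXD changed less than it did, as did 28.7% for HOXA, 58.0% for HOXB and 54.5% for HOXC. Matched windows overlap each other and share bins, so these are places in a distribution and not p-values. Among the 1233 matched windows of chromosome 17 alone, HOXB stood above 96.9%.

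**Figure D2:**
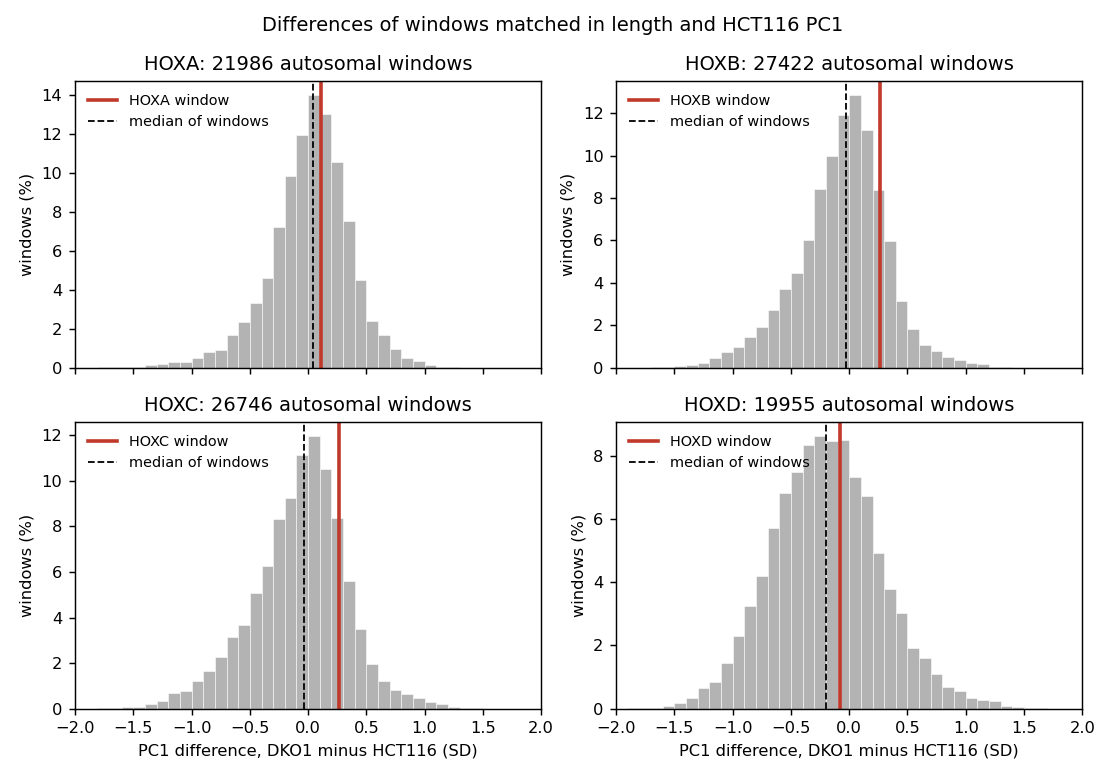
Distribution of the PC1 difference, DKO1 minus HCT116, over autosomal windows matched to each HOX cluster in length and HCT116 PC1, as a percentage of windows per step of 0.1. The solid line is the cluster and the dashed line the median of the windows. HOXB and HOXC, both at 0.27, lie to the right of the median but inside the bulk of the windows.

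Within HOXA, the increase was largest in the middle of the window, and the outermost bin at the HOXA13 end was lower in DKO1. In chromosome order, with the HOXA13 end last, the 7 bins had PC1 of 1.51, 1.45, 1.49, 1.58, 1.38, 1.07 and 0.98 in DKO1. In the same order they had 1.40, 1.40, 1.38, 1.25, 1.02, 1.08 and 1.17 in HCT116. Bins 4 and 5 were thus higher in DKO1 by 0.33 and 0.37, and bin 7 was lower, with a difference of -0.19. The mean differences of both flanks were negative, where that of the cluster was positive. In the 1 Mb below the cluster mean PC1 was 0.96 in DKO1 and 1.15 in HCT116, and in the 1 Mb above, beyond HOXA13, it was 0.74 in DKO1 and 1.25 in HCT116. The lowest difference, -0.99, was at 27400001 to 27420000 above the cluster, with 0.45 in DKO1 and 1.45 in HCT116, and the lowest below it, -0.68, was at 26860001 to 26880000. The highest was 0.38 below the cluster, at 26260001 to 26280000, and 0.22 above it, at 27720001 to 27740000. All 100 flank bins were positive in both lines. The difference of the upper flank, -0.51, was above that of 3.84% of 16516 windows of 1 Mb matched in HCT116 PC1. That of the lower flank, -0.19, was above 20.9% of 19971. With the median of chromosome 7 subtracted, the difference of the upper flank was -0.07 and that of the lower flank turned to 0.25. The mean of the cluster minus that of its flanks is not altered by this subtraction. The window exceeded its flanks by 0.50 in DKO1 and by 0.04 in HCT116, a change of 0.46 that was above that of 96.0% of 20174 windows matched in length and HCT116 PC1. With flanks of 2 Mb the change was 0.13.

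The HOXB cluster lay in compartment A in both lines and was higher in DKO1 in every bin. From HOXB1 to HOXB13 the 11 bins lay between 1.04 and 1.23 in DKO1 and between 0.67 and 1.03 in HCT116. The bin ranges did not overlap. The largest difference was at the HOXB1 end, with 1.09 in DKO1 and 0.67 in HCT116 at its outermost bin. The smallest difference, 0.06, was in bin 5. Values were also higher in DKO1 below HOXB1, where the largest difference of the flank, 0.88, was at 46460001 to 46480000, with 1.09 in DKO1 and 0.21 in HCT116. That flank averaged 1.04 in DKO1, with bins between 0.51 and 1.37, and 0.80 in HCT116, with bins between 0.19 and 1.31, and the flank above HOXB13 1.16 in DKO1 and 1.07 in HCT116. PC1 was higher in DKO1 in 40 of the 50 bins below HOXB1 and 42 of the 50 above HOXB13. The lowest differences of these flanks were -0.22 at 45640001 to 45660000 and -0.07 at 47260001 to 47280000, and the highest beyond HOXB13 was 0.28 in the bin next to the cluster, at 46820001 to 46840000. The mean of the window minus that of its flanks was 0.03 in DKO1 and -0.07 in HCT116, both smaller than the SD over the bins of the window in HCT116, 0.12.

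In HOXC the difference was graded, being largest at the HOXC13 end and near 0 at the HOXC4 end. From HOXC13 to HOXC4 the 7 bins had 1.07, 1.18, 1.13, 1.09, 1.07, 0.97 and 1.05 in DKO1. In HCT116 they had 0.60, 0.63, 0.83, 0.78, 0.86, 1.02 and 0.96. PC1 thus rose along the cluster in HCT116, while the DKO1 bins stayed between 0.97 and 1.18. The 3 bins at the HOXC13 end averaged 1.13 in DKO1 and 0.69 in HCT116, and the 3 bins at the HOXC4 end averaged 1.03 in DKO1 and 0.95 in HCT116. HOXC was the only 1 of the 4 clusters in which the order of the ends differed between the lines. The paralogue 13 end minus the other end gave 0.10 in DKO1 and -0.26 in HCT116 for HOXC, -0.34 in DKO1 and -0.30 in HCT116 for HOXA, 0.09 in DKO1 and 0.14 in HCT116 for HOXB, and -0.10 in DKO1 and -0.09 in HCT116 for HOXD. The flank below HOXC13 averaged 0.99 in DKO1 and 1.06 in HCT116, with bin differences between -0.52 at 53420001 to 53440000 and 0.25 in the bin next to the cluster, at 54300001 to 54320000. The flank above HOXC4 averaged 0.73 in DKO1 and 0.25 in HCT116, and its far end lay in compartment B in HCT116. There, 2 runs of at least 3 bins switched from B to A. The run at 55280001 to 55460000, which reached the end of the flank, had means of 0.11 in DKO1 and -0.93 in HCT116, and that at 55040001 to 55140000 had 0.29 in DKO1 and -0.42 in HCT116. The highest difference, 1.16, was at 55400001 to 55420000, and the lowest, -0.06, at 54700001 to 54720000. The difference of the whole flank, 0.48, was above that of 95.2% of 23060 matched windows of 1 Mb.

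HOXD lay at the border between A and B in both lines. From HOXD13 to HOXD1 the 6 bins had -0.07, 0.09, 0.16, 0.09, 0.14 and 0.25 in DKO1. In HCT116 they had 0.01, 0.23, 0.18, 0.19, 0.27 and 0.25. The difference was negative in every bin and at most 0.14 in size, whereas the flank beyond HOXD1 differed far more. The flank below HOXD13 averaged 0.04 in DKO1 and 0.03 in HCT116, with bin differences between -0.28 at 176280001 to 176300000 and 0.44 at 176060001 to 176080000. The flank above HOXD1 averaged 0.35 in DKO1 and -0.25 in HCT116, with 47 of 50 bins positive in DKO1 and 14 of 50 in HCT116. This difference of 0.59 was above that of 94.5% of 21909 matched windows of 1 Mb, and PC1 was higher in DKO1 in 49 of the 50 bins. The longest B-to-A run of this flank, of 380 kb at 177480001 to 177860000, had means of 0.31 in DKO1 and -0.52 in HCT116. The highest difference, 1.03, lay in it at 177760001 to 177780000, and the lowest of the flank, -0.12, was in the bin next to HOXD, at 177060001 to 177080000. Other runs, at 177220001 to 177400000 and 177920001 to 178000000, had differences of 0.51 and 0.59. Below HOXD13, 1 run of 80 kb at 176260001 to 176340000 went from A to B, with -0.09 in DKO1 and 0.12 in HCT116. The mean of HOXD minus that of its flanks was -0.08 in DKO1 and 0.30 in HCT116, a change of -0.38 that was above that of 12.6% of 18563 matched windows. With flanks of 2 Mb the change was -0.17.

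**Figure D3:**
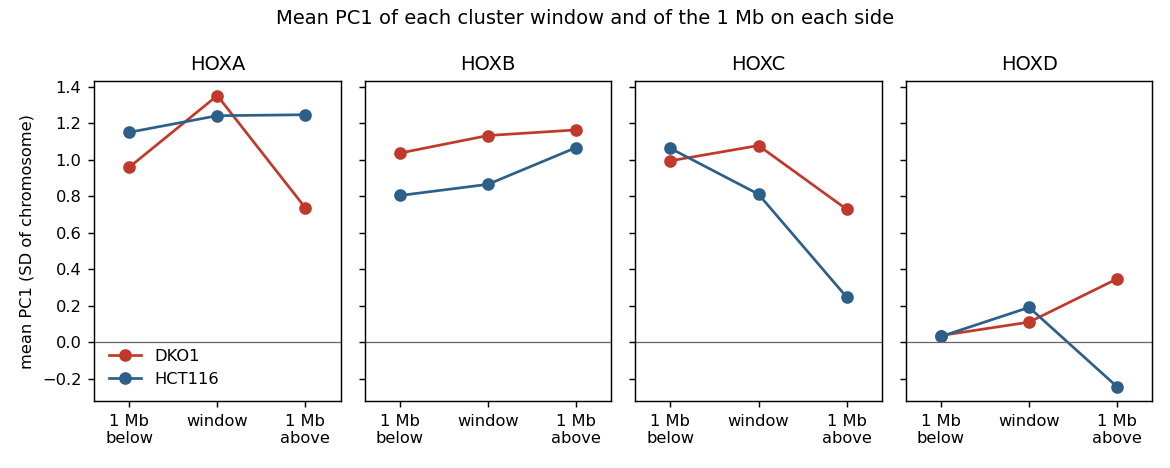
Mean PC1, in SD of the chromosome, of the 1 Mb below each cluster, of the cluster window and of the 1 Mb above it, in DKO1 and HCT116. The HOXA window stands above both flanks in DKO1 (1.35 against 0.96 and 0.74), and the flank above HOXD1 is positive in DKO1 (0.35) and negative in HCT116 (-0.25).

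Over the 8 flanks together, 48 of the 77 bins that were negative in HCT116 were positive in DKO1. Over the autosomes 9.50% of bins negative in HCT116 switched, a share over bins at every negative level that was not matched to these flanks. These 48 bins are mostly neighbours in 2 stretches, the flank above HOXD1 with 33 and that above HOXC4 with 14, and are not separate events. From A to B, 7 of 323 flank bins switched, against 16.6% over the autosomes, again without matching in level. All 7 were among the 30 bins positive in HCT116 in the flank below HOXD13. The mean differences of the HOXB flanks were above those of 86.7% (below HOXB1) and 65.1% (above HOXB13) of matched windows of 1 Mb. Those of the flanks below HOXC13 and HOXD13 were above 39.4% and 62.8%. Across the bins of a window with its flanks, PC1 of the lines correlated with a Pearson r of 0.91 around HOXC (107 bins), 0.57 around HOXB (111 bins), 0.43 around HOXD (106 bins) and 0.11 around HOXA (107 bins). Neighbouring bins share contacts, and over the whole of chromosomes 12, 17, 2 and 7 r was 0.91, 0.96, 0.92 and 0.77. A narrow range of values can lower r, so these values are not directly comparable. HCT116 PC1 ran from 0.75 to 1.48 around HOXA and from -1.34 to 1.54 around HOXC. The r values were not ranked among matched windows.

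**Figure D4:**
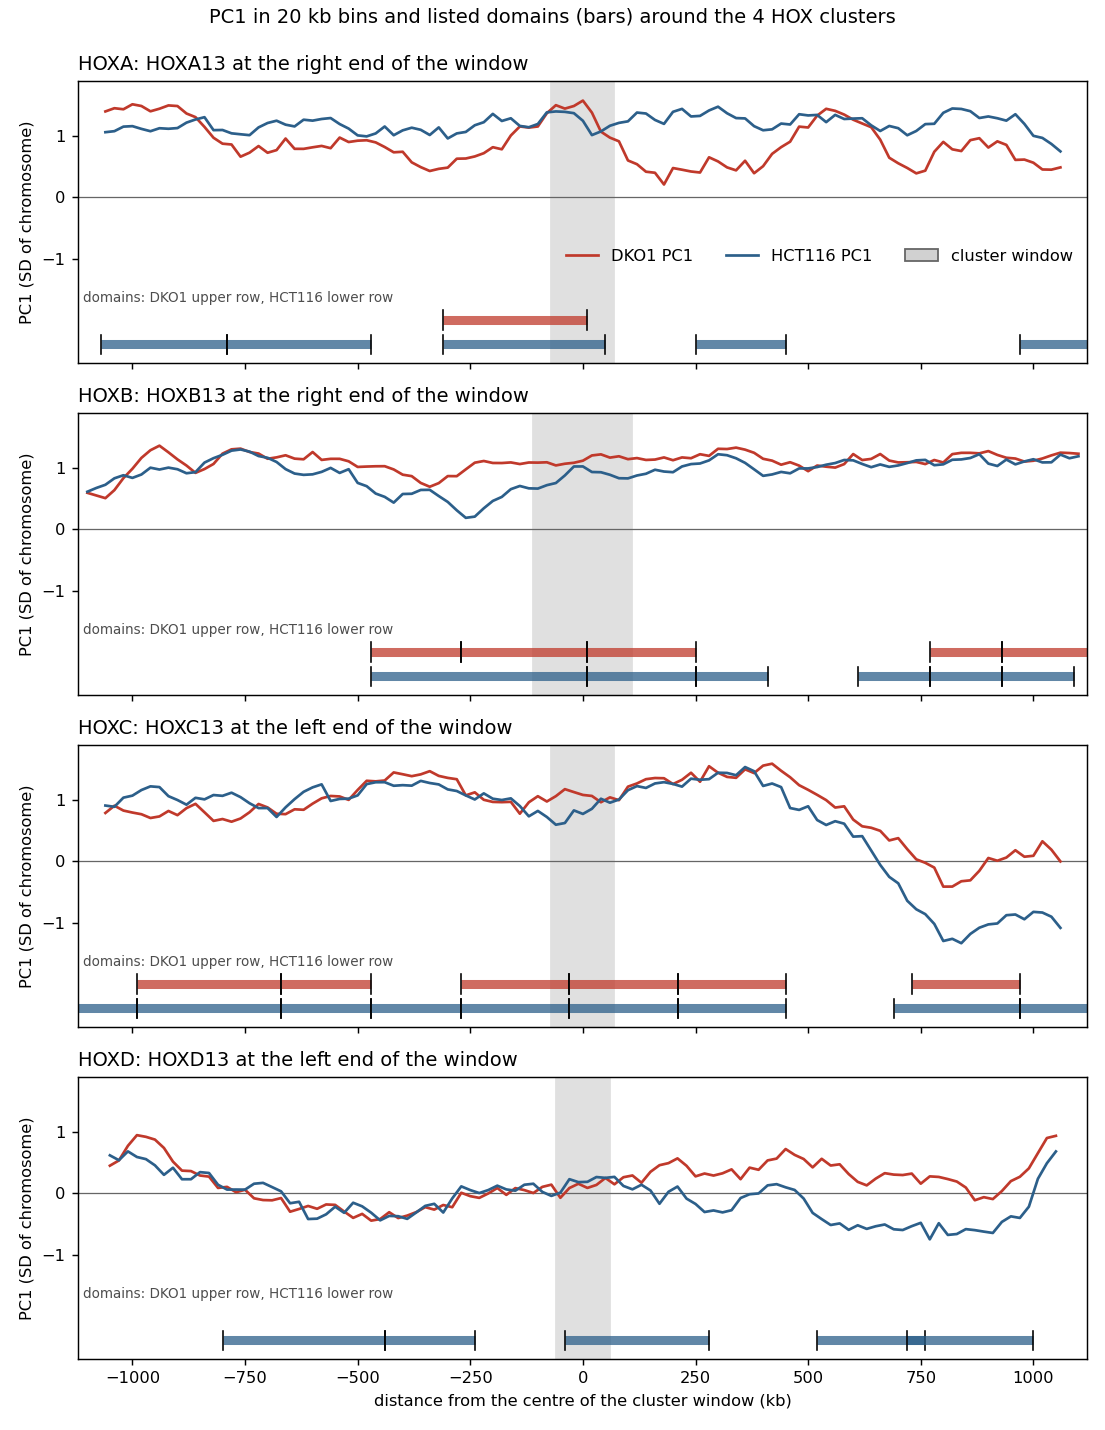
PC1 in 20 kb bins, in SD of the chromosome, by distance from the centre of each HOX cluster window in kb, for DKO1 and HCT116, with the listed domains of each line as bars. Around HOXA the DKO1 track peaks at 1.58 inside the window and falls to 0.21 beyond HOXA13, and no DKO1 domain is drawn around HOXD.

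The domain lists placed a boundary inside every HOX window in HCT116 and inside 3 of the 4 in DKO1. Whether these boundaries lie among the HOX genes or beside them was not determined. Domains are stretches that contact themselves more than their neighbours, listed on a 40 kb grid without a score. In all, 5 DKO1 domains and 6 HCT116 domains touched the windows, although the DKO1 list is much shorter, with 1823 domains against 4289 in HCT116. With the flanks, the clusters were touched by 12 DKO1 domains and 25 HCT116 domains, of which 1 and 5 were around HOXA, 5 and 6 around HOXB, 6 and 9 around HOXC and 0 and 5 around HOXD. Of the 5 DKO1 domains, 4 overlapped an HCT116 domain over 80% or more of both, against 84.0% of autosomal DKO1 domains. Of the 6 HCT116 domains 4 had such a partner in DKO1, against 35.9% on the autosomes. These shares cover domains at every PC1 level and were not matched to the clusters. The HCT116 domains of HOXA, HOXB and HOXC had mean HCT116 PC1 between 0.59 and 1.21.

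HOXC had the same domains in both lines, HOXB and HOXA shared all but 1 boundary position each, and HOXD had a domain in HCT116 only. In both DKO1 and HCT116 HOXC was divided at 54.36 Mb, 40 kb from the HOXC13 end of the window, between domains from 54.12 to 54.36 Mb and from 54.36 to 54.60 Mb. HOXB was divided at 46.72 Mb in both lines, and the domain towards HOXB13, from 46.72 to 46.96 Mb, was the same. The domain towards HOXB1 started at 46.44 Mb in DKO1 and at 46.24 Mb in HCT116, and the DKO1 domain covered 58.3% of the HCT116 domain. The rest of the HCT116 domain was a separate DKO1 domain, from 46.24 to 46.44 Mb. Both lists thus had a boundary at 46.24 Mb, and DKO1 had a further boundary at 46.44 Mb. HOXA lay at the upper end of a domain that started at 26.88 Mb in both lines and ended inside the window. It ended at 27.20 Mb in DKO1 and at 27.24 Mb in HCT116, a difference of 1 step of the grid. The HOXD window was entered by an HCT116 domain from 176.96 to 177.28 Mb, which covered 100 of its 120 kb from 20 kb inside the HOXD13 end onwards. No DKO1 domain touched HOXD or its flanks, and this was so for 45.6% of the windows matched to HOXD in length and HCT116 PC1 in DKO1 and for 12.8% in HCT116.

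Of the 10 HCT116 boundaries of these domains, 8 were found in DKO1 within 40 kb, against 45.2% over the autosomes. The boundaries of HOXA, HOXB and HOXC were all found, 2 of 2, 3 of 3 and 3 of 3, and those of HOXD were not, 0 of 2. Among autosomal HCT116 boundaries with a HCT116 PC1 of at least 0.5, as in HOXA, HOXB and HOXC, 60.5% were found. Among those with an absolute PC1 under 0.5, as in HOXD, 33.9% were found. In the other direction, 7 of 8 boundaries had an HCT116 boundary within 40 kb, against 92.5% over the autosomes. The exception was the DKO1 boundary at 46.44 Mb below HOXB1, 200 kb from the nearest HCT116 boundary. A boundary inside the window was also not rare elsewhere. Of the windows matched to HOXA, 26.0% held one in DKO1, 38.5% in HCT116 and 23.0% in both. For HOXB these shares were 36.1% in DKO1, 57.2% in HCT116 and 33.5% in both, and for HOXC 21.2% in DKO1, 34.9% in HCT116 and 18.6% in both. Of the windows matched to HOXD, 8.27% held one in DKO1, 21.2% in HCT116 and 7.08% in both.

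At the HOXA boundary the PC1 profile had a step in DKO1 that HCT116 lacked, in a comparison added after the values were seen. Over 5 bins on each side of 27.24 Mb, PC1 was 1.40 below the boundary and 0.69 above it in DKO1, and 1.22 below and 1.28 above it in HCT116. The step was thus -0.70 in DKO1 and 0.05 in HCT116. The change of -0.76 was larger in size than at 99.4% of 17430 autosomal positions matched in HCT116 PC1 and in HCT116 step. Neither this change nor that of HOXA relative to its flanks was ranked within chromosome 7. The lines differed more on that chromosome, where 19.9% of all bins went from A to B. On chromosomes 17, 12 and 2 it was 4.38%, 5.40% and 8.33%. At 27.20 Mb, the boundary listed in DKO1, the step was -0.49 in DKO1 and -0.22 in HCT116, a change of -0.27 that was larger in size than at 77.5% of 11958 matched positions. At the boundaries inside the other windows the change was smaller, with 0.10 at 46.72 Mb in HOXB, -0.18 at 54.36 Mb in HOXC and -0.07 at 176.96 Mb in HOXD. These 3 changes and that at 27.20 Mb lay within the range from the 5th to the 95th percentile of their matched positions.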

How the data were processed

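The PC1 scores and the domain lists were used as deposited. PC1 was given as a score per 20 kb bin and the domain starts and ends in bp on hg19, per the file headers and the labels. HiC-Pro, HOMER 4.6 and hg19 (GRCh37) are listed in the submitters' processing notes without a role. The domain caller is not given in the sources used here. The labels give the 3 replicates of each line 1 common set of files, which was taken as pooled, so no test was made and no p-value computed. No contact counts were used and the depth is unknown.

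The tracks were joined by bin position (Python 3.11.15, numpy 2.4.6, pandas 2.3.3). Window means were ranked among all autosomal windows of equal bin number within 0.25 of the HCT116 mean PC1, with windows touching a HOX cluster left out. The window functions were tested on simulated data. Boundaries were compared within 40 kb. Genes at the cluster ends, their neighbours, every bin of the windows and all switched runs of at least 3 bins in the flanks were named by rule. The microRNAs were added for their position. Of the genes this rule names, 1 is not reported here. Gene order and sequences are from RefSeq on GRCh38.p14, and no coordinate was converted. The clusters and comparisons were chosen with earlier results of these data known. The step at boundaries and the ranks of the flanks and of the change relative to the flanks were added after the values were seen.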

Additional observations from a re-analysis of the deposited data

How the results depend on the processing

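No paired analysis was possible because the files pool the 3 replicates of each line, as far as the labels show, and so no replicate could be left out either. A difference was taken as moved where it changed by more than the SD over the bins of its window or flank. A rank was taken as moved where it changed by more than 10 percentile points, and a count where it changed by over 1.5 times. A value was called reversed where its sign turned. Differences in percentile points within the chromosome are in another unit, so only their signs can be compared. Those of HOXB and HOXC, 12.9 and 7.77 points, were counted as unmoved. The alternatives for the flank differences, the step, and the centring of the window minus its flanks were added after seeing the data. Of 132 alternative values, 104 were counted as unmoved, 22 as moved and 6 as reversed. Part of the 104 could not have moved, so the tally does not measure robustness. Subtracting the chromosome median cannot alter a window minus its flanks, and a tolerance of 80 kb cannot lose a boundary found within 40 kb. Leaving out domains over 2 Mb removed none of those touching the windows. With the chromosome median subtracted, the PC1 difference of HOXA was 0.55 and that of HOXD 0.0490. The ranks became 85.5% for HOXA and 62.7% for HOXC, HOXD had 0 switched bins, and the flank differences of HOXA were 0.25 below and -0.0701 above. As percentiles within the chromosome, the differences of HOXA and HOXD were -6.93 and 1.83 points. Windows widened by 2 bins gave -0.0203 for HOXA and -0.0198 for HOXD. The HOXD rank was 41.7% without matching and 47.6% after subtraction of a 10 Mb running mean, which also turned the flank above HOXB13 to -0.0125. HOXB ranked at 96.9% within chromosome 17. Against flanks of 2 Mb the change of the window relative to its flanks was 0.13 for HOXA and -0.17 for HOXD, it was -0.31 for HOXD with flanks of 0.5 Mb, and medians gave 0.31 for HOXC. Switched bins with the flanks included numbered 14 for HOXC and 42 for HOXD, and HOXD had 0 after smoothing or with a PC1 minimum of 0.5, as had the clusters together without HOXD. At a tolerance of 0 kb, 1 of 2 HOXA boundaries was found. When only boundaries within 40 kb of the window were considered, 1 of 1 was found for each of HOXA, HOXB and HOXC. The change of the step at HOXA, DKO1 minus HCT116, lay between -0.61 and -0.85 under 4 alternatives. With 1 pooled map per line of unknown depth, none of these differences can be set against replicate error.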

Other observations

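HOXD lay in a long stretch of chromosome 2 without any listed domain in DKO1. This stretch ran from 175.88 to 182.60 Mb, over 6.72 Mb, and began 1060 kb below the cluster. It held 7 HCT116 domains. Of 1112 autosomal gaps between DKO1 domains, 79 were at least as long. The mean PC1 of the stretch was 0.18 in DKO1 and 0.17 in HCT116.

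Around HOXA, the DKO1 track exceeded the mean of the window, 1.35, in 3 stretches of at least 3 bins. Of these, 1 touched the window, at 27100001 to 27220000, with a maximum of 1.58. It began below the window and left out its outermost bins at the HOXA13 end. A window always holds bins above its own mean, so this stretch alone says nothing about HOXA. The others were at 26120001 to 26320000, with a maximum of 1.52, and at 27720001 to 27780000, with a maximum of 1.45. In HCT116 there were 8 such stretches against its own window mean, and 40 of the 100 flank bins exceeded it, compared with 14 in DKO1. The HCT116 window mean, 1.24, was a lower threshold and lay close to the mean of its flanks, 1.20.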
